A study of Mus musculus with 8 samples.

Results

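Cystatins are protein inhibitors of cysteine proteases, and cathepsins are the proteases that break down proteins inside lysosomes. The 10 genes described here are the cystatins Cst7, Cst3 and Cstb and the cathepsins Ctss, Ctsz, Ctsd, Ctsb, Ctsl, Ctsh and Ctsc, out of 18193 genes with a probe set annotated to their symbol alone. All probe sets annotated to one of these symbols alone were taken, which gave 21, and each gene is represented by its brightest one, chosen by its mean level over all 8 arrays. That choice used the overall level of each probe set and no group. The gene family was itself put forward with genotype differences of Cst7 and Ctss on these arrays already known, so the genotype values of those genes describe these arrays and are not independent evidence of a difference.

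Gene expression was measured in the hippocampus of female Tg6799 mice and of their littermates on whole-genome Affymetrix arrays. Tg6799 mice, called MT, carry mutant human amyloid precursor protein and presenilin transgenes under the Thy1 promoter, which drives them in neurons, and the littermates, called LM, serve as controls. The groups were LM and MT at 4 months, an early symptomatic age, and LM and MT at 8 months, a late symptomatic age, with 2 arrays in each (LM4m, MT4m, LM8m and MT8m). No label tells whether both arrays of a group stand for different animals, so p-values measure only the spread between the samples at hand, and that spread may be technical. All levels are deposited log2 values, differences are log2 differences of MT minus LM with the standard error (SE) of the fit over all 8 arrays, and adjusted p-values come from limma with Benjamini-Hochberg adjustment over 45037 probe sets. With 2 arrays in each group, their number limits the precision of every value.

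Most cathepsins are cysteine proteases of the papain family, which are made as inactive precursors, reach the lysosome through sorting receptors and become active in its acid interior. Cathepsin D differs in being an aspartic protease that cystatins do not inhibit. In the brain, microglia, the resident phagocytes, are rich in lysosomal proteases, and cathepsin S is a classical enzyme of microglia and macrophages. Cystatin F, the product of Cst7, is an inhibitor made by immune cells that can reach the lysosome itself, whereas cystatin C is secreted and cystatin B stays mainly in the cytosol.

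The promoter window of 250 bases before to 50 bases after the start site was taken from RefSeq (GRCm38.p6) and was found for 7 of the 10 genes. The promoters of Cst7, Ctss and Ctsd are shown because these genes were among the 4 with the largest MT minus LM differences and their windows hold 1 of 2 short motifs, each given 5′ to 3′ along the strand of the gene, with the motif in capitals. Those of Cst7 and Ctss lie on the plus strand at chr2:150570165-150570464 and chr3:95526536-95526835, and that of Ctsd on the minus strand at chr7:142387778-142388077.
Cst7: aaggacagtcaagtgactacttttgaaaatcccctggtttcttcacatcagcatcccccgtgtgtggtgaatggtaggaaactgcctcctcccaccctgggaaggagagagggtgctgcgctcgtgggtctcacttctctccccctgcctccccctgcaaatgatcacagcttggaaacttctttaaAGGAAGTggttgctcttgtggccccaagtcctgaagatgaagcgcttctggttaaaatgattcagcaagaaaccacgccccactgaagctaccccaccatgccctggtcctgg
Ctss: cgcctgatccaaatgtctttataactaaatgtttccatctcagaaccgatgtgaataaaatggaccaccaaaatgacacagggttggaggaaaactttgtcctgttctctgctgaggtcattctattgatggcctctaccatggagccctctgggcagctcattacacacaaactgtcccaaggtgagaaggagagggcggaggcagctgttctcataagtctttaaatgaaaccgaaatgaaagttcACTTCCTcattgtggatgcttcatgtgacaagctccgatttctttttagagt
Ctsd: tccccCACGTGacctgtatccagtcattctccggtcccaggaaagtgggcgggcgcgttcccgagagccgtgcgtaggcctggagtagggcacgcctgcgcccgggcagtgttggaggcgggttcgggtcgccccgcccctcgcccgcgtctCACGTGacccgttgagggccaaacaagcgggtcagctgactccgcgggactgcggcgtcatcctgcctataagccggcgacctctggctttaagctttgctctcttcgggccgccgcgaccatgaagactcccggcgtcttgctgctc
The motifs were chosen after the promoters had been looked at. The letters AGGAAGT, a core that the myeloid factor PU.1 can bind, start 63 bases before the start site of Cst7 and lie on the opposite strand across that of Ctss, from 2 bases before it, where they read ACTTCCT. On either strand they occurred in 3 of the 7 windows (Cst7, Ctss and Ctsc) and in 9.35% of 32851 promoter windows of the same length. The palindrome CACGTG, the centre of the element bound by the lysosomal regulator TFEB, starts 245 and 98 bases before the start site of Ctsd and was also found in the window of Ctsl, so 2 of 7 windows held it, against 7.15% of all windows. The full element, known as the CLEAR element and itself built around CACGTG, was searched as its exact palindrome on both strands and was found in 0 of 7 windows and in 0.326% of all windows. A match describes the letters and is not evidence of binding.

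The tissue and genotype labels were checked on marker genes before the members were read. All 7 hippocampal markers had a mean of 4 or more, against 46.6% of all genes. Their mean level lay between 7.21 and 7.65 on the LM arrays and between 7.14 and 7.58 on the MT arrays. At 4 months 2 of the 7 were lower in MT at an unadjusted p below 0.05 in limma, against 4.38% of all genes. No other brain region was set against them, so these levels do not tell hippocampus from other brain tissue. Thy1, whose promoter sequence drives the transgenes, read 11.73 to 11.82 on 3 MT arrays and 9.53 to 9.96 on the LM arrays, but 9.90 on the library labelled MT8m replicate 1. By Thy1 that library goes against its label, and results that rest on it are given with and without it. It was singled out by low values of genes that include Cst7, so p-values without it are not independent evidence. Choroid plexus markers also followed genotype, with a mean level of 5.62 to 6.88 in LM and 3.72 to 4.03 in MT, and there the library labelled MT8m replicate 1, at 3.92, went with its label. The direction of every MT minus LM value in the text follows the sample labels and is opposite to that of the published gene tables of the study, in which LM and MT are exchanged. Thy1 on the other 7 arrays goes with the sample labels.

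Cst7 (probe set 1419202_at), which encodes cystatin F, had the largest log2 difference between the genotypes of the 10 genes at 4 months and, with all arrays, at 8 months. Its level was 2.18 and 2.06 in LM4m, 6.69 and 5.92 in MT4m, and 2.08 and 2.14 in LM8m. In MT8m it was 1.75 on the library labelled replicate 1 and 8.03 on replicate 2. The gene was thus near the bottom of the scale on all 4 LM arrays and on the library labelled MT8m replicate 1, and well above it on the other 3 MT arrays. MT exceeded LM on the log2 scale by 4.18 ± 1.54 (SE, n = 2 per group) at 4 months and by 2.78 ± 1.54 at 8 months. No fold is given, because the LM values lie below 2.47, the median of all probe set means, and no detection calls were analysed. The mean log2 difference over both ages was 3.48 ± 1.09, with an adjusted p of 0.794 in limma. A mean of 4 or more over all arrays was reached by 9 of 10 members and by 46.6% of all genes. Cst7 was the exception, at 3.86, so a filter on low values would keep or drop it on the strength of the MT arrays alone.

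The other cystatins differed less between the genotypes. Cst3 (1426195_a_at), which encodes the secreted inhibitor cystatin C, read 11.20 and 11.35 in LM4m, 11.65 and 11.49 in MT4m, 10.94 and 11.46 in LM8m, and 11.05 and 11.76 in MT8m. The MT4m arrays were above the LM4m arrays, while the groups overlapped at 8 months, and the averaged difference was 0.25 ± 0.17 (1.19-fold, adjusted p = 0.876 in limma). Cstb (1422506_a_at), which encodes the cytosolic inhibitor cystatin B, read 8.38 and 7.94 in LM4m, 7.79 and 7.84 in MT4m, 7.80 and 8.10 in LM8m, and 7.66 and 7.96 in MT8m. It was the only member lower in MT at both ages, by 0.34 ± 0.19 and 0.14 ± 0.19 in size, with an adjusted p of 0.856 for the average in limma. The 8-month value was 0.010 without the library labelled MT8m replicate 1, and its sign also turned without LM8m replicate 2. The lower value at that age thus depended on single arrays of either genotype. The second probe set of Cstb did not show the same size of difference, with 0.034 at 8 months and an averaged value of -0.016 ± 0.10.

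**Figure D1:**
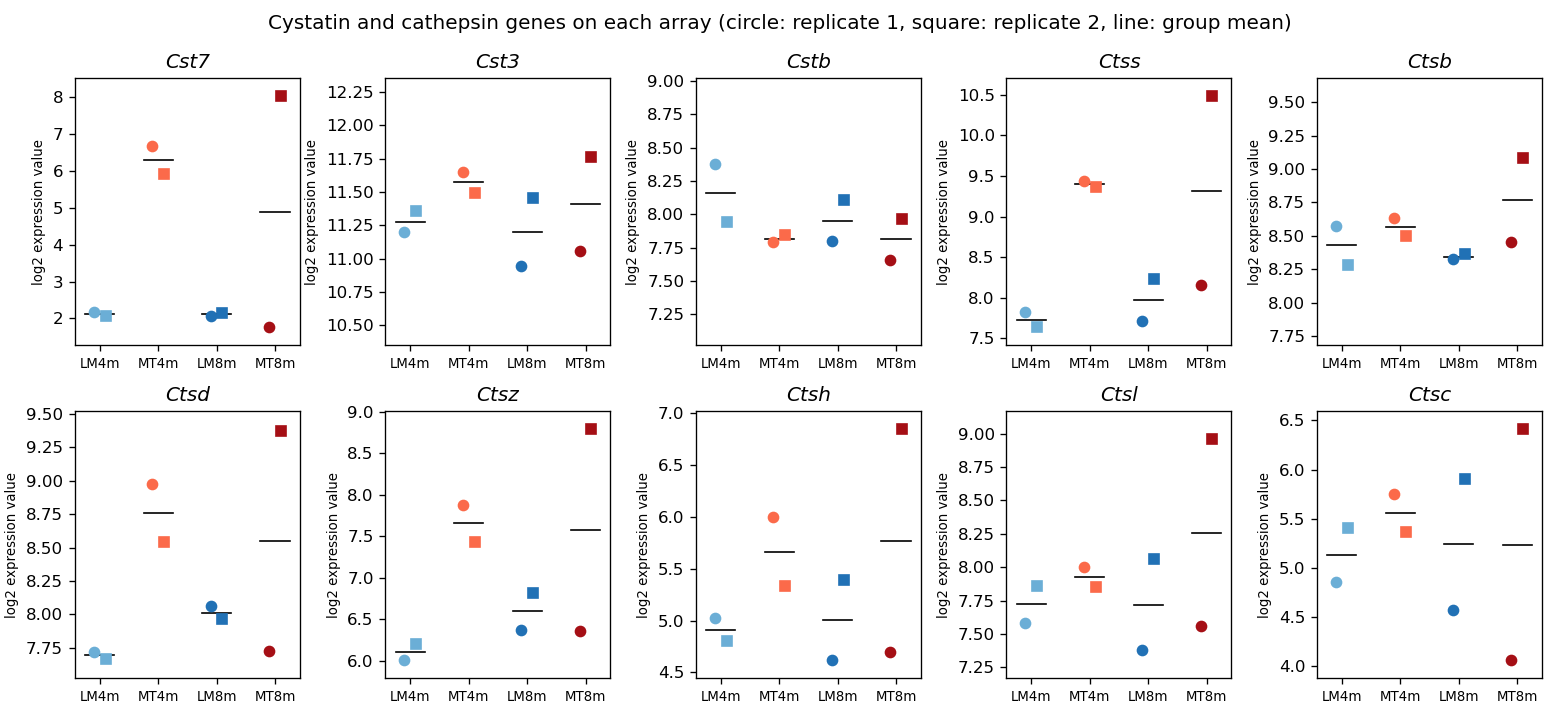
Level of each of the 10 genes on each of the 8 arrays (deposited log2 value of the brightest probe set), with arrays grouped as LM4m, MT4m, LM8m and MT8m. The MT8m arrays lie far apart for most genes, by 6.28 for Cst7 and by 2.32 for Ctss, whereas the MT4m arrays lie close together for Ctss, at 9.44 and 9.36.

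Among the proteases, Ctss, Ctsz and Ctsd had the largest genotype differences at 4 months and in the average over the ages, while at 8 months Ctsh, at 0.76, and Ctsl, at 0.54, were level with or above Ctsd, at 0.54. Ctss (1448591_at) encodes cathepsin S, which keeps its activity at neutral pH and trims the invariant chain during antigen presentation. Its level was 7.82 and 7.64 in LM4m, 9.44 and 9.36 in MT4m, 7.72 and 8.23 in LM8m, and 8.16 and 10.48 in MT8m. The 4-month groups did not overlap, and the library labelled MT8m replicate 1 fell between the LM8m arrays. The difference was 1.67 ± 0.59 (3.18-fold) at 4 months and 1.34 ± 0.59 (2.54-fold) at 8 months, and its average of 1.51 ± 0.42 (2.84-fold) had an adjusted p of 0.757 in limma, the lowest of the 10 genes.

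Ctsz (1417868_a_at) encodes cathepsin Z, a carboxypeptidase that removes residues from the end of its substrates. It read 6.01 and 6.20 in LM4m, 7.88 and 7.43 in MT4m, 6.37 and 6.82 in LM8m, and 6.36 and 8.79 in MT8m, so the MT4m arrays and MT8m replicate 2 were above all LM arrays. The averaged difference was 1.26 ± 0.44 (2.40-fold, adjusted p = 0.840 in limma). Ctsd (1448118_a_at) encodes the aspartic protease cathepsin D and read 7.72 and 7.67 in LM4m, 8.98 and 8.54 in MT4m, 8.06 and 7.96 in LM8m, and 7.72 and 9.37 in MT8m. The same 3 MT arrays were above all LM arrays, and the averaged difference was 0.80 ± 0.31 (1.74-fold, adjusted p = 0.853 in limma).

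The remaining cathepsins overlapped more between the genotypes. Ctsh (1418365_at), which encodes an aminopeptidase, read 5.02 and 4.80 in LM4m, 5.99 and 5.33 in MT4m, 4.62 and 5.39 in LM8m, and 4.69 and 6.84 in MT8m, with an averaged difference of 0.76 ± 0.42 (1.69-fold). Ctsl (1451310_a_at), which encodes an endopeptidase, read 7.59 and 7.86 in LM4m, 8.00 and 7.85 in MT4m, 7.38 and 8.06 in LM8m, and 7.56 and 8.96 in MT8m, with an averaged difference of 0.37 ± 0.29. MT8m replicate 2 was above all LM arrays for both genes, as was MT4m replicate 1 for Ctsh, whose 4-month groups did not overlap. Ctsb (1417490_at), which encodes a widely expressed endopeptidase with carboxypeptidase activity, read 8.58 and 8.28 in LM4m, 8.64 and 8.50 in MT4m, 8.32 and 8.36 in LM8m, and 8.45 and 9.08 in MT8m. It was the only member whose MT8m arrays were both above the LM8m arrays, and its averaged difference was 0.28 ± 0.15. Ctsc (1416382_at), which encodes a dipeptidyl peptidase that activates serine proteases of immune cell granules, read 4.86 and 5.41 in LM4m, 5.75 and 5.36 in MT4m, 4.58 and 5.90 in LM8m, and 4.06 and 6.41 in MT8m. Its averaged difference of 0.21 ± 0.49 was smaller than its error, and the adjusted p-values of these 4 genes in limma lay between 0.853 and 0.969. These averages moved with the MT8m arrays. With the library labelled replicate 1 left out they were 1.30 for Ctsh, above the 1.22 of Ctsd, 0.72 for Ctsl, 0.44 for Ctsb and 0.80 for Ctsc. Without replicate 2 they were 0.22 for Ctsh, 0.020 for Ctsl, 0.12 for Ctsb and -0.38 for Ctsc.

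**Figure D2:**
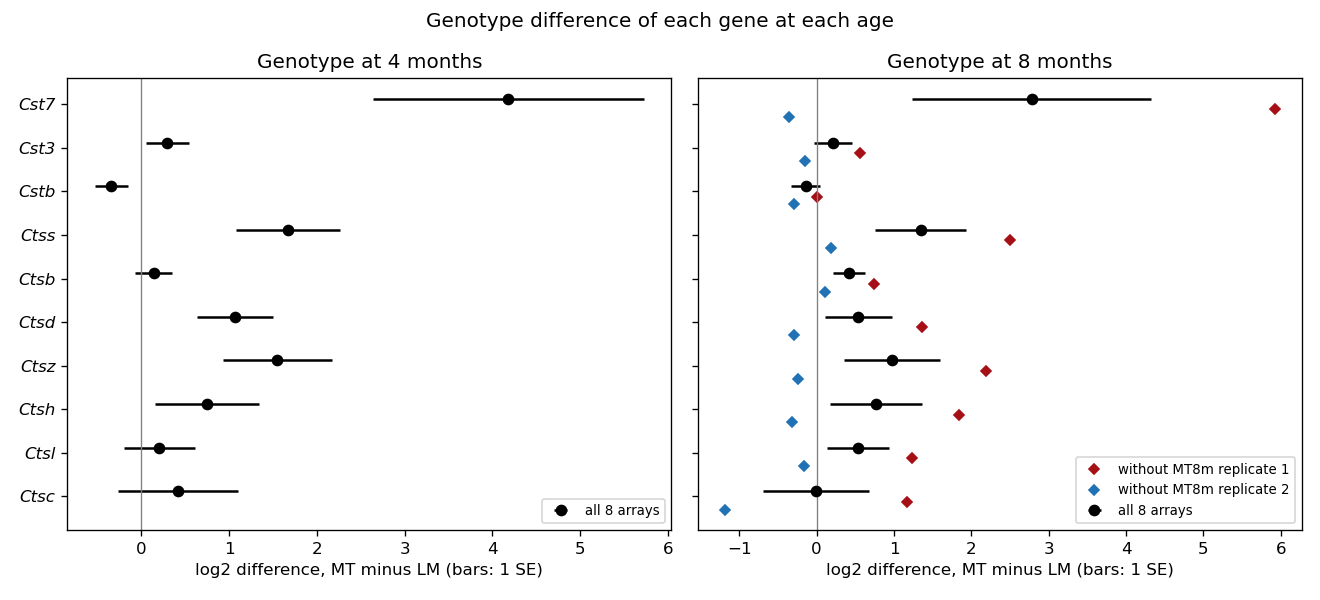
Log2 difference of MT minus LM for each gene at 4 months (left) and at 8 months (right), with circles and bars of 1 SE from the fit over 8 arrays, and diamonds without bars for the 8-month value after leaving out either MT8m array. At 8 months the value of Cst7 was 2.78 with all arrays, 5.92 without the library labelled MT8m replicate 1 and -0.36 without replicate 2.

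No member passed an adjusted p of 0.05 in limma. At 4 months this was 0 of 10 members against 0% of all genes, and at an unadjusted p below 0.05 it was 4 of 10 (Cst7, Ctss, Ctsz and Ctsd, all higher in MT) against 5.74% of all genes in either direction and 1.36% in the higher direction. At 8 months it was 0 of 10 against 0.022% adjusted and 0 of 10 against 3.54% unadjusted. For the average over the ages it was 0 of 10 against 0.0989% adjusted, and the 4 genes named for 4 months against 6.72% unadjusted, of which 2.08% were in the higher direction. Both MT4m arrays were above both LM4m arrays for 6 members (Cst3, Cst7, Ctsd, Ctsh, Ctss and Ctsz), against 14.8% of all genes, and below them for Cstb, against 22.9%. Over both ages 0 of 10 members had all 4 MT arrays above all 4 LM arrays (1.28% of all genes) and 0 had them below (2.42%). At 8 months Ctsb alone had both MT arrays above both LM arrays, against 13.3% of all genes, and no member had them below, against 13.8%. The difference was positive for 9 of 10 members at 4 months (44.8% of all genes), for 8 at 8 months (50.6%) and for 9 in the average (46.5%). The median difference of the members was 0.58 at 4 months and 0.54 at 8 months, where the medians of all genes were -0.024 and 0.0020. With the library labelled MT8m replicate 1 left out, the 8-month difference was positive for 10 of 10 members (47.8% of all genes) with a median of 1.30, and without replicate 2 it was positive for 2 of 10 (52.3%) with a median of -0.26.

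The 8-month values rested on the unlike MT8m arrays. MT8m replicate 2 was the highest of all 8 arrays for every member except Cstb, and it exceeded the library labelled replicate 1 by 6.28 for Cst7, 2.43 for Ctsz, 2.35 for Ctsc, 2.32 for Ctss, 2.15 for Ctsh, 1.65 for Ctsd and 1.40 for Ctsl. The remaining gaps were 0.71 for Cst3, 0.63 for Ctsb and 0.30 for Cstb. That library was itself the lowest of the 8 arrays for Cst7, Cstb and Ctsc. Without it, the 8-month difference was 5.92 for Cst7 (adjusted p = 0.00364 in limma), 2.51 for Ctss (adjusted p = 0.0121) and 2.19 for Ctsz (adjusted p = 0.0295), so 3 of 10 members passed, against 0.346% of all genes. Averaged over the ages without it, Cst7 (5.05, adjusted p = 0.000537 in limma), Ctss (2.09, adjusted p = 0.00416), Ctsz (1.87, adjusted p = 0.00758) and Ctsd (1.22, adjusted p = 0.0166) passed, against 0.528% of all genes. The other 3 MT arrays were then above all 4 LM arrays for 5 members (Cst3, Cst7, Ctsd, Ctss and Ctsz), against 3.74% of all genes, and below them for 0, against 5.56%. With LM4m replicate 1 left out as well, a setting chosen after the data were seen, 2 members passed at 8 months (0.269% of all genes), 3 in the average (0.297%) and 1 in the test among the 4 groups (0.0824%). Without MT8m replicate 2 instead, the 8-month difference was -0.36 for Cst7, 0.18 for Ctss, -0.24 for Ctsz and -0.29 for Ctsd, so the direction for 3 of these 4 genes depended on that array.

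**Figure D3:**
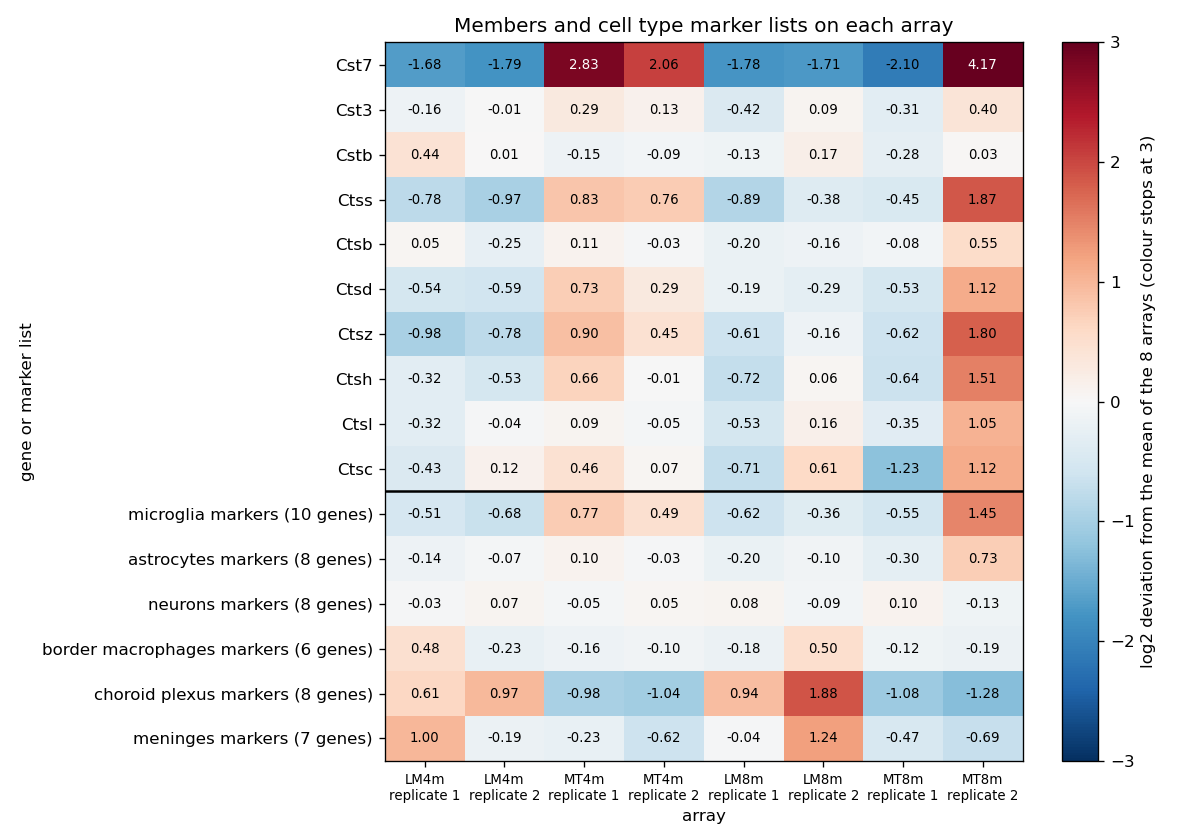
Log2 deviation of each gene, and of the mean of each of 6 cell type marker lists, on each array from its own mean over the 8 arrays, with genes and lists in rows, arrays in columns and the colour stopping at 3. The MT4m arrays and MT8m replicate 2 are high for Cst7, Ctss, Ctsz and Ctsd, and the library labelled MT8m replicate 1 is not.

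At 4 months the call depended on which arrays set the spread. Fitted on the 4 arrays of that age alone, Cst7 (adjusted p = 0.0182 in limma) and Ctss (adjusted p = 0.0370) passed, which is 2 of 10 members against 0.0989% of all genes. With either MT8m array left out, Cst7 passed (adjusted p = 0.0115 in limma without the library labelled MT8m replicate 1), 1 of 10 members against 0.0275% of all genes. Neither setting changed the 4-month values themselves, which stayed at 4.18 and 1.67.

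Markers of microglia were higher on the same arrays. The mean level of 10 markers was 5.27 and 5.10 in LM4m, 6.55 and 6.26 in MT4m, 5.16 and 5.42 in LM8m, and 5.23 and 7.23 in MT8m. All 10 had a positive averaged difference, against 46.5% of all genes, with a median of 1.14, beside -0.012 for all genes. In limma 6 were higher at an unadjusted p below 0.05, against 2.08% of all genes. After adjustment 0 passed, against 0.0989%. Leaving out the library labelled MT8m replicate 1 gave a median of 1.62, beside -0.018 for all genes, with a single array left in MT8m. In bulk tissue, more cells of a type and more RNA per cell cannot be told apart. Taken relative to the mean of these markers on each array, the MT minus LM difference was 2.40 for Cst7, 0.43 for Ctss and 0.18 for Ctsz, and it was negative for the other 7 members, at -0.28 for Ctsd, -0.32 for Ctsh, -0.71 for Ctsl, -0.80 for Ctsb, -0.83 for Cst3, -0.87 for Ctsc and -1.32 for Cstb. Ctss minus the marker mean lay between 2.54 and 2.81 on the LM arrays and between 2.89 and 3.25 on the MT arrays. How many of all genes would separate in this way was not counted. For Cst7 it was 0.14 and -0.34 in MT4m, 0.80 on MT8m replicate 2 and -3.47 on the library labelled MT8m replicate 1. On the LM arrays it lay between -3.27 and -3.03. The averaged difference was 0.72 for Csf1r and 0.63 for Cx3cr1 but 1.26 for C1qa, so relative values depend on the markers taken. These relative values are descriptions with no test.

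Other cell types were checked in the same way. The mean of 8 astrocyte markers lay between 7.90 and 8.04 on the LM arrays and between 7.81 and 8.84 on the MT arrays, and that of neuronal markers between 9.11 and 9.29 and between 9.08 and 9.30. Markers of border macrophages lay at 1.95 to 2.68 in LM and 1.99 to 2.08 in MT, and those of neutrophils at 1.90 to 2.07 on all arrays, near the bottom of the scale. Choroid plexus and meninges make cystatin C, and their markers were lower in MT, where the mean of the meningeal ones was at most 4.53, against at least 4.57 in LM. With the choroid plexus marker mean as a covariate, the averaged difference was 1.10 for Cst3, 1.01 for Cst7, 1.41 for Ctss, 1.34 for Ctsz, 1.36 for Ctsl, 1.31 for Ctsh, 2.28 for Ctsc, -0.060 for Ctsd, -0.11 for Ctsb and -0.11 for Cstb, and 0 of 10 members passed. At 8 months the same covariate gave -0.13 for Cst7, -0.036 for Ctsb and -0.48 for Ctsd, each positive without it. It gave 0.020 for Cstb and 2.44 for Ctsc, each negative without it. The choroid plexus marker mean did not overlap between the genotypes, at 5.62 to 6.88 in LM and 3.72 to 4.03 in MT. The covariate therefore could not be cleanly separated from genotype, and these values lean on the spread within the groups. The part of such tissue in the member levels was not tested.

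In all, 6 genes had more than 1 probe set, and these differed in size within a gene. For Ctsz the other probe sets gave averaged differences of 1.10 and 1.13, beside 1.26 for the brightest, although their names end in _s_at and _x_at, which mark probes shared with other transcripts or open to cross-hybridization. For Ctsb the brightest gave 0.28 ± 0.15, and the others gave 0.62 ± 0.24, 0.47 ± 0.22, 0.034 ± 0.15 and, on a dim probe set with a mean of 2.36, -0.055 ± 0.12. The second probe set of Ctsh gave 0.55 ± 0.42, beside 0.76 ± 0.42. The further probe sets of Ctsl and Ctsc had means between 1.56 and 1.85, near the bottom of the scale, and gave -0.037 for Ctsl and -0.12 and 0.20 for Ctsc. The difference of Ctsz was thus of similar size on every probe set, while that of Ctsb depended on the probe set read.

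**Figure D4:**
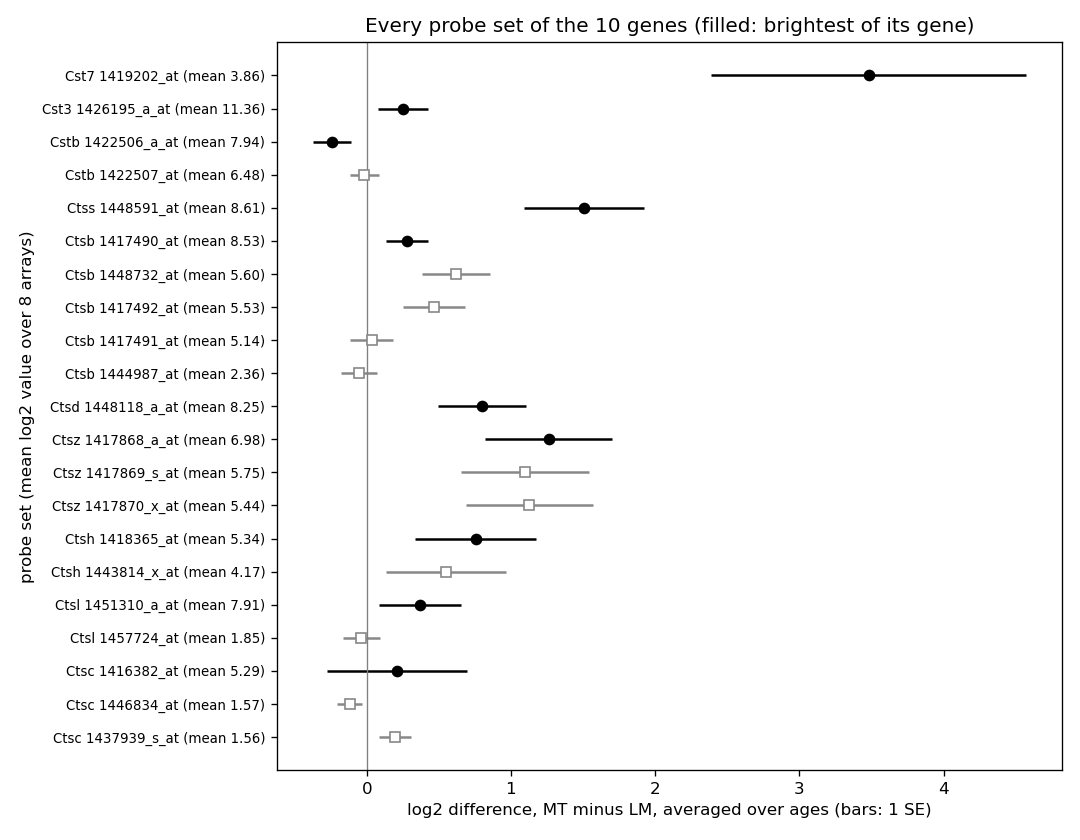
Averaged log2 difference of MT minus LM, with bars of 1 SE, for every probe set of each gene, with the brightest probe set marked. All probe sets of Ctsz lie between 1.10 and 1.26, whereas those of Ctsb run from -0.055 to 0.62.

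The values for age turned on the MT8m arrays. The difference of 8 months minus 4 months, averaged over the genotypes, was -0.71 for Cst7 and between -0.12 and 0.21 for the other members, with adjusted p-values of 0.931 to 0.987 in limma. Without the library labelled MT8m replicate 1 it was 0.86 for Cst7, 0.66 for Ctss and 0.81 for Ctsz. It was then positive for 9 of 10 members, against 47.4% of all genes. Without replicate 2 it was -2.28, -0.50 and -0.40 for these genes and positive for 0 of 10 members, against 49.5% of all genes. With all arrays, no member passed in limma at an adjusted p (0% of all genes) or at an unadjusted p below 0.05 (6.47% of all genes). The genotype difference was not shown to differ between the ages, with 0 of 10 members passing at an adjusted p (0% of all genes) or at an unadjusted p (2.58% of all genes) in limma. For Cst7 the difference between the ages was -1.40 ± 2.18, and it was 1.74 without the library labelled MT8m replicate 1 and -4.54 without replicate 2, so its sign rested on that library. In the test for any difference among the 4 groups, 0 of 10 passed after adjustment (0.0165% of all genes) and Ctss alone had an unadjusted p below 0.05 (5.38% of all genes). Without the library labelled MT8m replicate 1 that test called 3 of 10 members (0.231% of all genes), and without MT8m replicate 2 it called 1 (0.011%).

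Further genes were read from 7 lists of 124 genes, which hold other cystatins and cathepsin substrates beside lysosomal genes. Of these, 114 were measured, and 70 had a mean of 4 or more, against 46.6% of all genes. The median over the 114 was close to that of all genes, but it includes the dim ones. A median over the brighter genes alone was not taken. In the averaged genotype comparison 0 of 114 passed after adjustment in limma, 7 were higher and 4 lower at an unadjusted p below 0.05 (6.14% and 3.51% of those measured, against 2.08% and 4.64% of all genes), and the median difference was 0.010, beside -0.012 for all genes. At 4 months 1 was higher and 4 were lower (0.877% and 3.51%, against 1.36% and 4.38% of all genes). Without the library labelled MT8m replicate 1, the median averaged difference of the 114 was 0.035, beside -0.018 for all genes. In that setting it was 2.48 for Cd68, 2.03 for Gusb, 1.75 for Laptm5, 0.96 for Man2b1, 0.81 for Hexa and 0.72 for Lgmn. At 8 months it was 3.02 for Cd68 and 2.78 for Gusb. These genes were picked by their p-values in that fit, where MT8m is a single array, so their values only describe these arrays. Gusb and Man2b1 encode glycosidases, Laptm5 a lysosomal membrane protein of immune cells, and Lgmn the protease legumain, which matures cathepsins. Cd68, a lysosomal membrane protein of phagocytes, had the largest value among the genes named from these lists. It read 3.68 and 3.24 in LM4m, 5.79 and 4.99 in MT4m, 3.51 and 3.89 in LM8m, and 3.43 and 6.73 in MT8m, a difference of 1.65 ± 0.60 (adjusted p = 0.853 in limma). As for Cst7, the 3 other MT arrays were above all LM arrays and the library labelled MT8m replicate 1 was not. Those 3 arrays were above all LM arrays for 3.74% of all genes. Cd68 was named for a p among the smallest 2 of its list, and that choice favours such a separation. Hexa, a subunit of the enzyme that trims gangliosides, read 7.40 and 7.29 in LM4m, 8.10 and 7.89 in MT4m, 7.34 and 7.29 in LM8m, and 7.27 and 8.29 in MT8m, a difference of 0.56 ± 0.20.

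Of 12 other cystatins measured none had a mean of 4 or more, and the smallest p-values belonged to Stfa3 (0.22 ± 0.12) and Cst6 (-0.27 ± 0.17). Of 15 other cathepsins 3 reached that mean. Ctse, which encodes an aspartic protease of endosomes, was dim, at 2.17 and 2.21 in LM4m, 2.66 and 2.43 in MT4m, 2.13 and 2.49 in LM8m, and 2.41 and 3.18 in MT8m. It differed by 0.42 ± 0.17, beside 0.23 ± 0.10 for Cts8, which was dimmer still, with a mean of 1.56. The 15 proton pump subunits measured had a median of -0.045, with Atp6v0e at -0.32 ± 0.15 and Atp6v1b2 at 0.30 ± 0.16. Among 12 sorting and transcription genes 8 had a positive difference, against 46.5% of all genes. Their median was 0.053, beside -0.012 for all genes. The smallest p-values were on the lower side. They belonged to Mitf, a transcription factor related to TFEB, at -0.32 ± 0.09 (adjusted p = 0.775 in limma), and to Igf2r, at -0.27 ± 0.10. Igf2r encodes the large mannose 6-phosphate receptor that carries hydrolases to the lysosome. Mitf read 4.61 and 4.77 in LM4m, 4.34 and 4.17 in MT4m, 4.42 and 4.56 in LM8m, and 4.23 and 4.34 in MT8m. All 4 MT arrays, the library labelled MT8m replicate 1 included, were thus below all 4 LM arrays, as for 2.42% of all genes. Mitf was named for the smallest p of its list, and that choice favours such a separation. The remaining named genes were Galc, which breaks down myelin galactolipids (0.50 ± 0.19), Laptm4b (-0.32 ± 0.14), Tlr7 (0.57 ± 0.23) and Tlr9 (-0.25 ± 0.10). Tlr7 and Tlr9 are endosomal receptors whose cleavage by cathepsins is needed for signalling. Both were dim, with means of 2.44 and 2.23, below the median of all probe set means. Tlr7 read 3.51 on MT8m replicate 2 and at most 2.64 on the other arrays.

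Genes with the pattern most like those of Cst7 and Ctss were sought, among 8483 genes for Cst7 and 8482 for Ctss with a mean of 4 or more, by the mean absolute difference over the 8 arrays between log2 values centred on each gene's own mean. Nearest to Cst7 were Mpeg1 at 0.861, Cd52 at 0.934, Ccl6 at 0.975, Gpr34 at 1.08 and Tyrobp at 1.09, so even the nearest gene was on average 0.861 away on the log2 scale. Cd52, Ccl6 and Gpr34, like Cst7, were below 4 on all LM arrays and reached the required mean only through MT arrays, so the filter itself favours genes of that pattern. Nearest to Ctss were C1qa at 0.135, Fcgr3 at 0.153, Fcer1g at 0.185, Ctsz at 0.187 and C1qc at 0.197. Ctsz, another member, was thus the fourth nearest gene to Ctss. The arrays are the same for all of these genes, so a library that stands apart adds to every likeness.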

How the data were processed

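The deposited log2 values, 45101 probe sets with 64 controls among them, had been made by the authors by RMA in affy, an R package whose version is not given in the sources used here. The values ran from 0.979 to 12.9 with a median probe set mean of 2.47, which is a low value after RMA, and the offset is unknown. Detection calls were not analysed here. Symbols came from the platform annotation and were updated from RefSeq through their Entrez identifiers.

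The deposited values were fitted with limma 3.58.1 in R 4.3.3 as 4 group means over all 8 arrays (4 residual degrees of freedom), two-sided, with Benjamini-Hochberg adjustment over 45037 probe sets. Contrasts were genotype at each age and averaged, age averaged over genotypes, their interaction and an F test. Tested on simulated data with 45037 probe sets, the fit found 80% of changes of 1 log2 unit at 4 months. It found 74% at 8 months and 97% for the average, and 100% of changes of 2. False calls there were 10 of 190, 15 of 189 and 12 of 209. These percentages describe the simulated data only. In the deposited data at 4 months, Cst7 (4.18 ± 1.54) and Ctss (1.67 ± 0.59) each had an adjusted p of 0.944 in limma. The percentage found at the spread of the members was not tested.

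The members and lists were chosen with earlier results of these data known. Named were all members with every probe set, the 2 genes of each other lysosomal list with the smallest averaged genotype p where none passed in a genotype or age contrast, the 5 genes nearest to each of Cst7 and Ctss (mean of 4 or more), and markers that touch a result. Some listed genes are not reported here. Alternatives were a filter at a mean of 4, cyclic loess, a trended robust prior, 1 probe set per gene, the compared groups alone, a choroid plexus covariate, an additive model, a replicate block, other probe sets, and each array left out.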

Additional observations from a re-analysis of the deposited data

How the results depend on the processing

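No member passed at an adjusted p of 0.05 with all arrays. With the compared groups alone, 2 members passed at 4 months, against 0.0989% of all genes. With 1 array left out, 0 to 1 passed at 4 months, 0 to 3 at 8 months, 0 to 4 for the average over the ages and 0 to 3 in the F test. The highest counts at 8 months, for the average and in the F test came without the library labelled MT8m replicate 1. An alternative chosen after seeing the data, without both that library and LM4m replicate 1, gave 2 at 8 months, 3 for the average and 1 in the F test. Where a group was left with 1 array, that array was assumed to vary like the other groups. The share of all genes that passed changed with these settings too. It is given in the Results beside each count above 0, and the counts are to be read with it. The other alternatives run gave 0 in each contrast, as all alternatives did for age and the interaction. Among the differences of single genes under the alternatives, 16 passed where the value with all arrays had not, 824 stayed on the same side of the threshold, and 89 of those had the other sign with neither value passing.

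The titles number LM arrays 1 and 2 and MT arrays 3 and 4 at both ages. Deviations of same-numbered arrays correlated at 0.241 in LM and -0.175 in MT. With 2 arrays in each group the deviations mirror each other, so each genotype gives a single value, which cannot settle what the numbers mean. The ages come from different animals, so the arrays were not treated as pairs. Whether the numbers mark a shared batch was not tested. With the number as a replicate block, 0 members passed for age and for the interaction.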
